A study of Paxillus involutus with 25 samples.

Results

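The mycelium of Paxillus involutus strain ATCC 200175 was compared between 5 cultures grown with K-vermiculite and 5 grown with muscovite, by RNA sequencing, out of 25 cultures in the series. Both groups stood on agar of the same K-depleted MMN medium, which was made without KH2PO4, and differed by the mineral flakes laid on the cellophane between agar and fungus. Because KH2PO4 carries phosphate as well as potassium, all 10 cultures lacked that source of both. Each culture was started from agar plugs cut at the edge of colonies 7 days old and grew in darkness at 25 °C, with harvest after 21 days. The remaining cultures, 5 per group, were grown with phlogopite on K-depleted medium, on complete MMN medium, or on K-depleted medium without a mineral, and give the levels set beside the minerals below. All groups used 1 strain, and whole mycelium was extracted, so fewer cells of a kind and less RNA per cell cannot be told apart. The comparison covered the genes that passed a filter on low counts, 12744 of 18032 gene IDs in the deposited table.

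Paxillus involutus is a basidiomycete that forms ectomycorrhiza, a sheath of hyphae around tree roots through which the fungus passes mineral nutrients to the tree and receives sugars. Potassium is the main cation of the fungal cytoplasm, where it balances charge and holds turgor, and hyphae take it up through plasma-membrane transporters and channels. Muscovite is an aluminium mica whose layers hold potassium tightly, whereas vermiculite is a sheet silicate with expandable layers whose interlayer cations exchange with the surroundings. The submitters' labels rank the minerals by how readily their potassium weathers, with muscovite first and K-vermiculite last; that order was not checked here and runs against this general description. The files and the reference pair almost all genes with locus tags alone, so the genes below carry no functional names.

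The 10 libraries held 26.1 to 41.2 M counts with K-vermiculite and 26.2 to 31.9 M with muscovite, where 1 M is 1000000 counts. Correlations of log2 CPM (counts per 1000000, scaled by TMM) ran from 0.9935 to 0.9955 among K-vermiculite libraries, from 0.9896 to 0.9959 among muscovite libraries, and from 0.978 to 0.990 between the groups. The first principal component of the 10 libraries, with 50.7% of the variance, separated the groups, the K-vermiculite libraries lying between -26.3 and -14.8 and the muscovite libraries between 14.2 and 24.9. The second, with 13.2%, split the muscovite libraries: replicates 3 and 4 lay at -13.3 and -21.0, and replicates 1, 2 and 5 at 13.2, 13.0 and 10.4. The median SD of log2 CPM within a group was 0.11 with K-vermiculite and 0.14 with muscovite. No date or batch is given in the labels.

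K-vermiculite and muscovite gave different levels for a large share of the tested genes, and most of these differences were small. In the edgeR quasi-likelihood test, 4984 genes were called at a Benjamini-Hochberg adjusted p under 0.05, 39.1% of those tested; 2414 (18.9%) were higher and 2570 (20.2%) lower with K-vermiculite. The median size of a called log2 fold change was 0.36. A change of at least 1.5-fold was seen in 436 higher and 568 lower genes, and one of at least 2-fold in 91 higher and 161 lower genes, together 252 genes or 1.98% of those tested. At 3-fold there remained 18 higher and 31 lower genes, and at 4-fold 5 higher and 13 lower. Among the 10043 tested genes that averaged 5 CPM or more over the 10 libraries, the 5 values of one mineral did not overlap the 5 of the other in 3180 (31.7%). Of the 160 such genes that were called with at least 2-fold, 155 had no overlap. No gene had at least 10 counts in every library of one mineral and 3 counts or fewer in total over the 5 libraries of the other. The balance of directions depended on scaling, since 58.5% of calls were higher with K-vermiculite when only library totals were used, and 48.4% with TMM. Without muscovite replicates 3 and 4, 4191 genes were called.

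**Figure D1:**
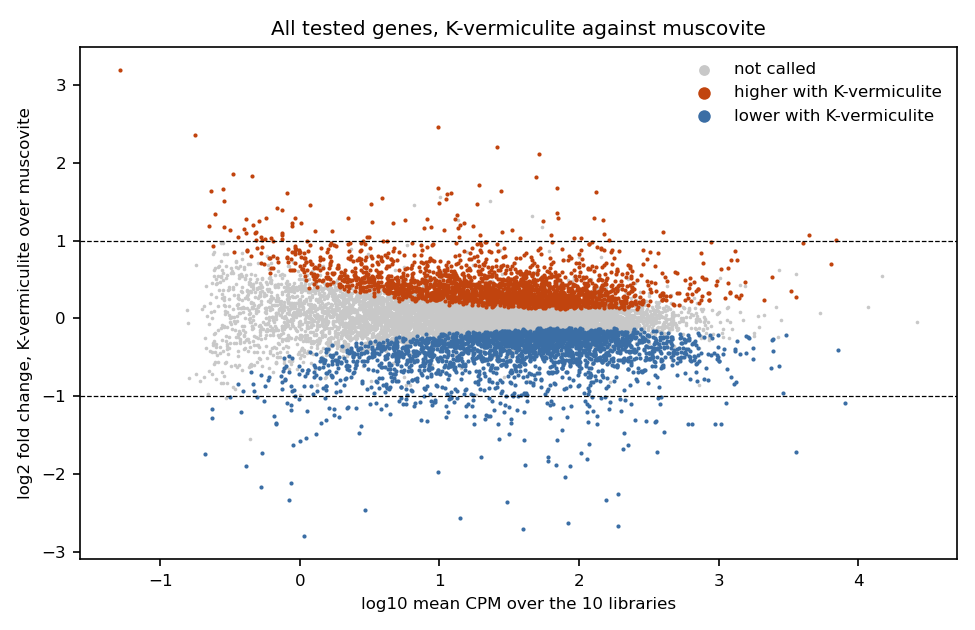
Each point is 1 of the 12744 tested genes, with the log10 of its mean CPM over the 10 libraries on the x axis and its log2 fold change of K-vermiculite over muscovite on the y axis; coloured points are the 2414 genes called higher and the 2570 called lower, and dashed lines mark a 2-fold change. Most coloured points lie between the dashed lines, and the widest changes are spread over the whole range of levels.

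The genes with the widest rises on K-vermiculite were low to moderately abundant with muscovite and separated the groups completely. They were chosen among the 3010 called genes that averaged 5 CPM or more without overlap of the groups, so the separation of their groups is part of the choice. PAXINDRAFT_158079 had 14.1, 12.7, 17.7, 9.26 and 28.6 CPM in the K-vermiculite cultures, against 4.10, 2.59, 2.54, 3.59 and 2.19 CPM in the muscovite cultures (edgeR log2 fold change 2.46 with SE 0.32, adjusted p 4.29e-06). All 5 K-vermiculite values exceeded 9 CPM, although replicate 5 was about 3 times as high as replicate 4, and no muscovite value reached 5 CPM. PAXINDRAFT_170854 had 62.6, 65.4, 75.9, 75.3 and 101 CPM in the K-vermiculite cultures, against 26.3, 15.2, 27.8, 23.3 and 15.3 CPM in the muscovite cultures (edgeR log2 fold change 1.82 with SE 0.39, adjusted p 0.000900). Its lowest K-vermiculite culture was more than 2 times its highest muscovite culture. PAXINDRAFT_168631 had 156, 211, 175, 209 and 247 CPM in the K-vermiculite cultures, against 59.8, 59.5, 62.5, 90.2 and 52.8 CPM in the muscovite cultures (edgeR log2 fold change 1.62 with SE 0.21, adjusted p 3.15e-06). Muscovite replicate 4 was the highest of its group, yet it stayed under the lowest K-vermiculite culture. PAXINDRAFT_16449 had 16.3, 17.1, 16.7, 19.1 and 22.5 CPM in the K-vermiculite cultures, against 7.28, 5.60, 6.17, 5.59 and 5.21 CPM in the muscovite cultures (edgeR log2 fold change 1.62 with SE 0.13, adjusted p 5.51e-10). Its replicates were among the tightest of the set, and its adjusted p was the smallest of the 10.

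The other 6 genes of that set showed the same separation at different levels. PAXINDRAFT_172063 averaged 29.7 ± 7.57 CPM with K-vermiculite and 9.07 ± 1.14 CPM with muscovite (SD, n = 5 each; log2 fold change 1.71). PAXINDRAFT_95977 averaged 15.0 ± 1.35 CPM with K-vermiculite and 4.64 ± 0.972 CPM with muscovite (1.68 on the log2 scale). PAXINDRAFT_6572 averaged 105 ± 18.4 CPM with K-vermiculite and 33.0 ± 11.7 CPM with muscovite (1.67 on the log2 scale). Among these 3, PAXINDRAFT_6572 had the widest spread within the muscovite group, from 19.3 to 45.3 CPM. PAXINDRAFT_19704 averaged 41.5 ± 4.75 CPM with K-vermiculite and 13.3 ± 3.32 CPM with muscovite (1.64 on the log2 scale). PAXINDRAFT_76416 and PAXINDRAFT_76742, which are neighbours in the genome, complete the 10 and are described with their position. In edgeR, the adjusted p of these 6 genes ran from 6.84e-09 to 6.14e-06.

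Among the called genes that averaged 5 CPM or more without overlap, the 10 with the widest falls on K-vermiculite averaged from 15.5 to 330 CPM with muscovite. They were chosen by the same rule as the rises, so the separation of their groups is again part of the choice. PAXINDRAFT_175161 had 12.4, 11.8, 12.1, 8.46 and 7.97 CPM in the K-vermiculite cultures, against 53.2, 57.0, 104, 62.7 and 66.0 CPM in the muscovite cultures (edgeR log2 fold change -2.71 with SE 0.21, adjusted p 4.47e-09). Every muscovite culture stood above 50 CPM and every K-vermiculite culture below 13 CPM. PAXINDRAFT_167028 had 61.2, 48.4, 60.8, 38.0 and 51.1 CPM in the K-vermiculite cultures, against 188, 271, 473, 345 and 375 CPM in the muscovite cultures (edgeR log2 fold change -2.67 with SE 0.23, adjusted p 1.39e-08). The muscovite cultures of this gene differed among themselves by about 2.5 times, less than the gap to the K-vermiculite cultures. PAXINDRAFT_97712 had 79.0, 63.7, 67.2, 48.5 and 72.7 CPM in the K-vermiculite cultures, against 232, 265, 484, 264 and 341 CPM in the muscovite cultures (edgeR log2 fold change -2.26 with SE 0.17, adjusted p 1.10e-09). All 5 K-vermiculite values of PAXINDRAFT_97712 lay between 48 and 80 CPM, under the lowest muscovite value. PAXINDRAFT_11534 had 5.13, 3.85, 4.22, 3.39 and 3.76 CPM in the K-vermiculite cultures, against 22.6, 21.7, 33.9, 16.0 and 26.4 CPM in the muscovite cultures (edgeR log2 fold change -2.57 with SE 0.20, adjusted p 2.05e-09). Its K-vermiculite values kept within a narrow band, from 3.39 to 5.13 CPM.

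The remaining 6 of the widest falls included genes with more scatter. PAXINDRAFT_96838 had values from 10.1 to 35.2 CPM in the 5 K-vermiculite cultures, against 104.0 to 210.0 CPM in the muscovite cultures (log2 fold change -2.64). PAXINDRAFT_12839 averaged 9.98 ± 2.68 CPM with K-vermiculite and 51.3 ± 12.9 CPM with muscovite (SD, n = 5 each; -2.36 on the log2 scale). PAXINDRAFT_169338 averaged 51.4 ± 16.9 CPM with K-vermiculite and 259 ± 73.2 CPM with muscovite (-2.34 on the log2 scale). These 3 had adjusted p values in edgeR from 1.67e-07 to 1.22e-06. PAXINDRAFT_56670 averaged 31.0 ± 16.9 CPM with K-vermiculite and 127 ± 19.3 CPM with muscovite (-2.04 on the log2 scale, edgeR adjusted p 0.000715). PAXINDRAFT_173020 averaged 3.99 ± 2.61 CPM with K-vermiculite and 15.5 ± 3.82 CPM with muscovite (-1.98 on the log2 scale, edgeR adjusted p 0.000121). PAXINDRAFT_168134 averaged 36.5 ± 17.9 CPM with K-vermiculite and 135 ± 37.6 CPM with muscovite (-1.90 on the log2 scale, edgeR adjusted p 0.00484). The K-vermiculite cultures of these last 3 scattered widely about their means, and the calls held under each of the 20 alternatives tried.

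**Figure D2:**
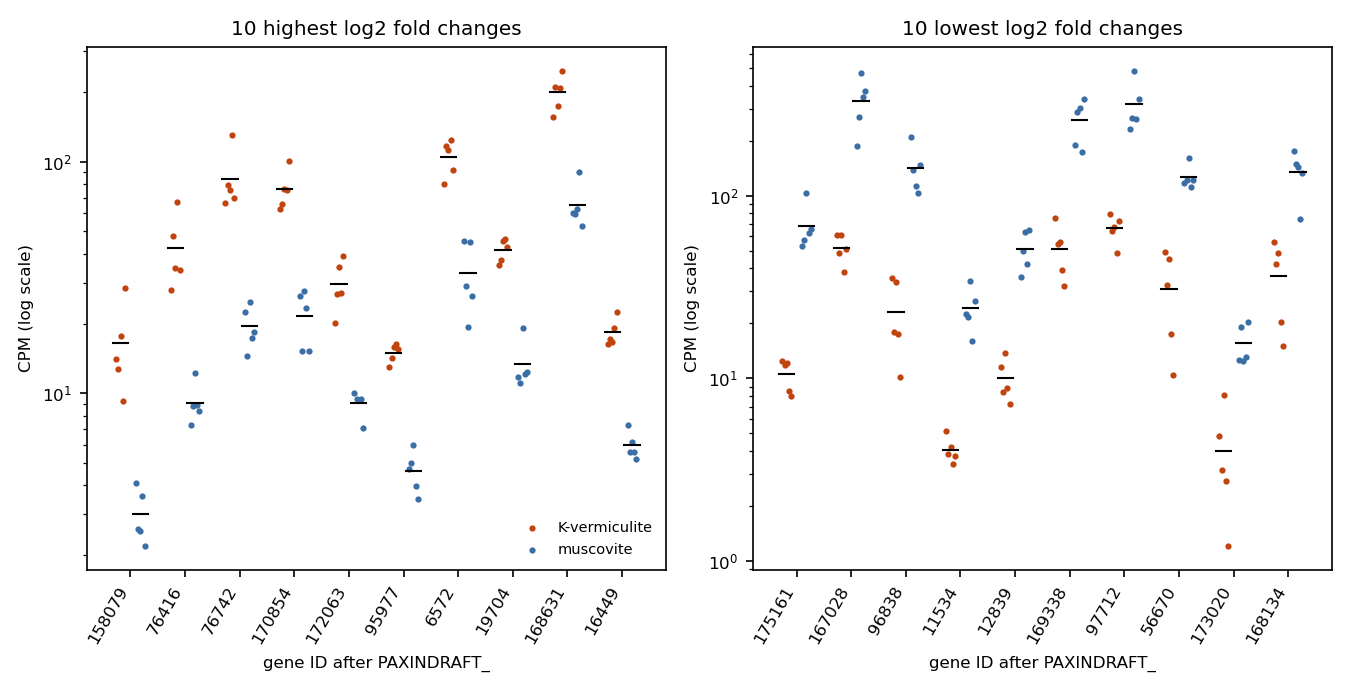
CPM on a log scale for the 10 genes with the highest (left) and the 10 with the lowest (right) log2 fold change; each point is 1 library, K-vermiculite left of muscovite for each gene, and lines are group means. In each gene, as the choice of genes required, the 5 points of one mineral lie clear of the 5 of the other, from PAXINDRAFT_158079 at the left to PAXINDRAFT_168134 at the right.

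The levels in the other 3 groups place these differences. Of the 91 genes at least 2-fold higher with K-vermiculite than with muscovite, complete medium had the highest mean of the 5 groups in 66 and K-vermiculite in 24, while the lowest mean was that of phlogopite in 47, of muscovite in 27 and of K-depleted medium in 16. Of the 161 genes at least 2-fold lower with K-vermiculite, complete medium had the lowest mean in 108 and K-vermiculite in 52, and the highest mean was that of K-depleted medium in 63, of phlogopite in 51 and of muscovite in 43. Phlogopite, the other mica on the same medium, had a mean nearer to that of muscovite than to that of K-vermiculite in 235 of the 252 genes (log2 of CPM + 0.1). PAXINDRAFT_168631, with its highest mean on complete medium, stood at 199.6 ± 35.2 CPM with K-vermiculite, 64.9 ± 14.6 with muscovite, 65.3 ± 20.9 with phlogopite, 258 ± 19.3 on complete medium and 57.9 ± 16.9 on K-depleted medium. In other genes K-vermiculite lay outside both media. PAXINDRAFT_158079, at 16.5 ± 7.42 CPM with K-vermiculite, stood above both media, with 5.42 ± 1.80 CPM on the complete and 1.45 ± 0.659 CPM on the K-depleted one. PAXINDRAFT_11534, at 4.07 ± 0.663 CPM with K-vermiculite, averaged 11.4 ± 2.84 CPM in complete-medium cultures and 29.4 ± 5.31 CPM in K-depleted cultures, so that K-vermiculite lay under both media. In some, muscovite lay under phlogopite and K-depleted medium: PAXINDRAFT_170854, at 21.6 ± 6.01 CPM with muscovite, averaged 45.5 ± 26.8 CPM with phlogopite and 39.4 ± 23.4 CPM on K-depleted medium, where cultures varied widely.

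Among the 50 most abundant genes by mean CPM over the 10 libraries, 13 were called higher and 19 lower with K-vermiculite, and 18 were not called, beside the 39.1% called of all tested genes. The 10 most abundant genes took 12.5, 10.6, 10.1, 8.76 and 8.70% in the K-vermiculite cultures, against 9.92, 9.63, 6.77, 8.56 and 8.63% in the muscovite cultures, as shares of the counts of a library. The difference of the means was 1.42 percentage points, beside SDs of 1.56 points with K-vermiculite and 1.23 points with muscovite. With 5 cultures each, no difference was established (exact two-sided permutation p 0.143). PAXINDRAFT_68958, the most abundant, averaged 25943 ± 2979 CPM with K-vermiculite and 26892 ± 5395 CPM with muscovite and was not called (edgeR adjusted p 0.798). PAXINDRAFT_169257 averaged 12305 ± 1178 CPM with K-vermiculite and 11129 ± 1121 CPM with muscovite and was not called either (edgeR adjusted p 0.227). PAXINDRAFT_169161 had 5647, 4751, 8166, 4223 and 2976 CPM in the K-vermiculite cultures, against 11882, 13000.2, 6927, 11351 and 11382 CPM in the muscovite cultures (edgeR log2 fold change -1.08 with SE 0.19, adjusted p 7.43e-05). The groups of this gene overlap by a single library on each side, as muscovite replicate 3 lies under the highest K-vermiculite culture. PAXINDRAFT_103396 had 2067, 1423, 2272, 1671 and 939 CPM in the K-vermiculite cultures, against 4873, 5306, 5547, 5573 and 6360.4 CPM in the muscovite cultures (edgeR log2 fold change -1.72 with SE 0.20, adjusted p 6.01e-07). No K-vermiculite culture came near the lowest muscovite culture of this gene. PAXINDRAFT_65274 averaged 6123 ± 419 CPM with K-vermiculite and 8133 ± 756 CPM with muscovite (edgeR log2 fold change -0.41 with SE 0.08, adjusted p 0.000223). PAXINDRAFT_152508 was the highest-ranking gene by rise in CPM whose call held under each alternative, with 6956, 7278, 8595, 8439.5 and 7945 CPM in the K-vermiculite cultures, against 5225, 4844, 4601, 4776 and 4707 CPM in the muscovite cultures (edgeR log2 fold change 0.70 with SE 0.12, adjusted p 3.56e-05). Its 5 muscovite values lay close together and all 5 K-vermiculite values above them.

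The direction of the mineral difference was read against the difference between complete and K-depleted medium, which was measured in 10 other libraries. Of the 4984 genes called between the minerals, 4485 (90.0%) had the same sign in both comparisons, so that genes higher with K-vermiculite than with muscovite were mostly also higher on complete than on K-depleted medium. Among the 7760 genes not called between the minerals, 65.3% had the same sign. The media differed in 8543 tested genes (67.0%). Of the 4984, 4118 (82.6%) were also called between the media, 3901 in the same direction and 217 in the opposite one. Among the 252 genes of at least 2-fold, 224 were called in the same direction and 6 in the opposite direction. Across all 12744 genes, Pearson's r of the paired log2 fold changes was 0.68 and Spearman's rho 0.67. These are descriptions across genes, which are not independent replicates, and all 25 libraries share 1 fitted model.

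Genes were then chosen by the media alone, as called and at least 2-fold different between complete and K-depleted medium, and their mineral differences were examined. Of these 1579 genes, 996 were called between the minerals in the same direction, 15 in the opposite one, and 568 were not called. The difference of K-vermiculite minus muscovite was a median 0.35 of that between the media, with quartiles of 0.19 and 0.50, and in 18 genes it was at least as large. The same media difference served for the choice and as divisor, which can pull the ratio down, and by how much was not tested. Genes raised on complete medium and genes lowered there did not follow to the same degree. The 872 raised genes had a median ratio of 0.27 (quartiles 0.13 and 0.44) and the 707 lowered genes one of 0.42 (quartiles 0.28 and 0.55), although the median log2 fold changes between the media were close in size, 1.37 and -1.33. Over the 20 alternatives, the ratio ran from 0.26 to 0.30 for the raised genes and from 0.39 to 0.44 for the lowered genes. By culture, the median log2 distance of the 872 genes from the muscovite mean was 0.37, 0.47, 0.31, 0.44 and 0.51 in K-vermiculite replicates 1 to 5. Each muscovite culture was set against the mean of the other muscovite cultures, and its distance lay in a range from -0.05 to 0.03. For the 707 lowered genes the distances were -0.49, -0.61, -0.44, -0.62 and -0.72 in the K-vermiculite cultures, against a range from -0.11 to 0.10 in the muscovite cultures. In each K-vermiculite culture the lowered genes had moved further, and replicate 5 had moved furthest in both sets and replicate 3 least.

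**Figure D3:**
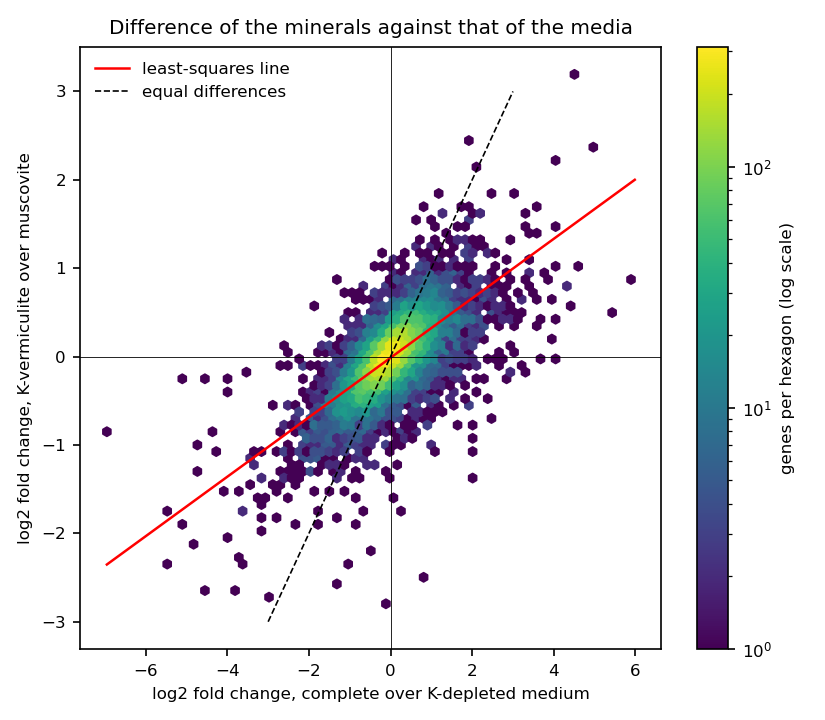
Hexagons count the 12744 tested genes by log2 fold change of complete over K-depleted medium (x axis) and of K-vermiculite over muscovite (y axis), with the colour on a log scale; the red line is the least-squares line, with a slope of 0.34, and the dashed line marks equal differences. The cloud runs along the red line, which is flatter than the dashed one, and the hexagons with the most genes lie close to 0 on both axes.

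Whether the mineral difference had the size of the media difference was tested gene by gene as a difference of differences. In edgeR this contrast called 4875 genes, 38.3% of those tested, 2444 with a positive and 2431 with a negative value. Among the 1579 genes chosen by the media, 1269 were called, and in 1267 of these the mineral difference fell short of the media difference or ran against it. The media difference entered both the choice and this contrast, so the choice itself favours a shortfall. Examples follow among the named genes. PAXINDRAFT_103396 averaged 113 ± 34.7 CPM in complete-medium cultures and 5219 ± 601 CPM in K-depleted cultures, which is -5.53 on the log2 scale, beside -1.72 between the minerals (edgeR adjusted p of the difference 7.24e-10). For PAXINDRAFT_169161 the values were -4.22 between the media and -1.08 between the minerals (edgeR adjusted p of the difference 2.83e-09). PAXINDRAFT_12839 had -5.49 between the media and -2.36 between the minerals (edgeR adjusted p of the difference 1.19e-06). In all 3 the K-vermiculite level lay between those of complete medium and muscovite. PAXINDRAFT_95977 and PAXINDRAFT_76742, by contrast, had nearly equal values in both comparisons, 1.68 between the minerals beside 1.68 between the media for PAXINDRAFT_95977 and 2.11 beside 2.10 for PAXINDRAFT_76742. The difference of differences of PAXINDRAFT_76742 was 0.01 with SE 0.27, and that of PAXINDRAFT_95977 had an SE of 0.23. Gaps of that size or somewhat more could not be seen, as in PAXINDRAFT_19704, where 0.36 with SE 0.21 was not called (edgeR adjusted p 0.194).

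A smaller group of genes moved against the media. Of the 3010 called genes that averaged 5 CPM or more and did not overlap between the minerals, 127 were called in the opposite direction between the media, 65 of them higher and 62 lower with K-vermiculite, and 2 of the 127 changed at least 2-fold. PAXINDRAFT_163239 had 303, 337, 356, 455 and 395 CPM in the K-vermiculite cultures, against 200.4, 183, 207, 193 and 222 CPM in the muscovite cultures (edgeR log2 fold change 0.88 with SE 0.11, adjusted p 1.29e-06). On complete medium this gene was lowest of all groups, at 72.3 ± 5.57 CPM, against 176 ± 25.4 CPM on K-depleted medium. PAXINDRAFT_110290 had 41.5, 41.2, 35.5, 36.3 and 41.2 CPM in the K-vermiculite cultures, against 85.8, 64.1, 92.1, 114 and 66.8 CPM in the muscovite cultures (edgeR log2 fold change -1.11 with SE 0.16, adjusted p 7.81e-06). Complete medium gave its highest level, 138 ± 9.52 CPM, and K-vermiculite its lowest, with K-depleted medium at 67.1 ± 13.2 CPM. PAXINDRAFT_97130 averaged 14.8 ± 4.08 CPM with K-vermiculite and 37.9 ± 12.8 CPM with muscovite (edgeR log2 fold change -1.36 with SE 0.43, adjusted p 0.0159), and 84.5 ± 45.2 CPM on complete medium. PAXINDRAFT_94521 averaged 4.31 ± 0.587 CPM with K-vermiculite and 8.23 ± 1.98 CPM with muscovite (edgeR log2 fold change -0.93 with SE 0.26, adjusted p 0.00660), and 24.5 ± 7.43 CPM on complete medium. In both genes K-vermiculite had the lowest and complete medium the highest mean of the 5 groups. PAXINDRAFT_114110 averaged 57.6 ± 10.2 CPM with K-vermiculite and 34.2 ± 7.80 CPM with muscovite (edgeR log2 fold change 0.75 with SE 0.17, adjusted p 0.00151). PAXINDRAFT_93209 averaged 17.7 ± 1.74 CPM with K-vermiculite, 10.5 ± 0.929 CPM with muscovite, 16.6 ± 1.90 CPM with phlogopite, 11.8 ± 1.06 CPM with complete and 18.6 ± 2.63 CPM with K-depleted medium, muscovite being the lowest.

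A further 197 of the 3010 genes differed between the minerals with no call and a log2 fold change under 0.25 between the media, and were called in the difference of differences. Of these, 112 were higher and 85 lower with K-vermiculite, and 2 changed at least 2-fold. PAXINDRAFT_115018 had 539, 558, 608, 494 and 509.6 CPM in the K-vermiculite cultures, against 278, 320.1, 179.9, 213 and 267 CPM in the muscovite cultures (edgeR log2 fold change 1.11 with SE 0.18, adjusted p 4.20e-05). Its levels elsewhere were 218 ± 47.8 CPM with phlogopite, 189.5 ± 37.2 CPM with complete medium and 179.7 ± 45.4 CPM with K-depleted medium, so that K-vermiculite stood above all other groups. PAXINDRAFT_119053 averaged 134 ± 11.6 CPM with K-vermiculite and 72.5 ± 8.85 CPM with muscovite (edgeR log2 fold change 0.88 with SE 0.12, adjusted p 2.52e-06). PAXINDRAFT_168695 averaged 53.9 ± 7.31 CPM with K-vermiculite and 30.0 ± 1.71 CPM with muscovite (edgeR log2 fold change 0.84 with SE 0.12, adjusted p 1.10e-05). Both stood between 27 and 82 CPM in the other 3 groups, under their K-vermiculite means. PAXINDRAFT_100617 had 10.8, 9.41, 12.2, 9.90 and 8.47 CPM in the K-vermiculite cultures, against 17.1, 18.2, 22.9, 20.0 and 21.7 CPM in the muscovite cultures (edgeR log2 fold change -0.98 with SE 0.12, adjusted p 3.86e-07). Its mean in each of the other 3 groups was close to 20 CPM, near the muscovite mean. PAXINDRAFT_94790 averaged 20.6 ± 6.57 CPM with K-vermiculite and 60.8 ± 16.0 CPM with muscovite (edgeR log2 fold change -1.57 with SE 0.28, adjusted p 0.000150), on either side of 45.3 ± 11.5 CPM in complete-medium and 41.7 ± 10.0 CPM in K-depleted cultures. PAXINDRAFT_176591 averaged 30.1 ± 2.75 CPM with K-vermiculite and 53.1 ± 2.82 CPM with muscovite (edgeR log2 fold change -0.82 with SE 0.08, adjusted p 3.15e-08), and muscovite had the highest mean of the 5 groups.

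**Figure D4:**
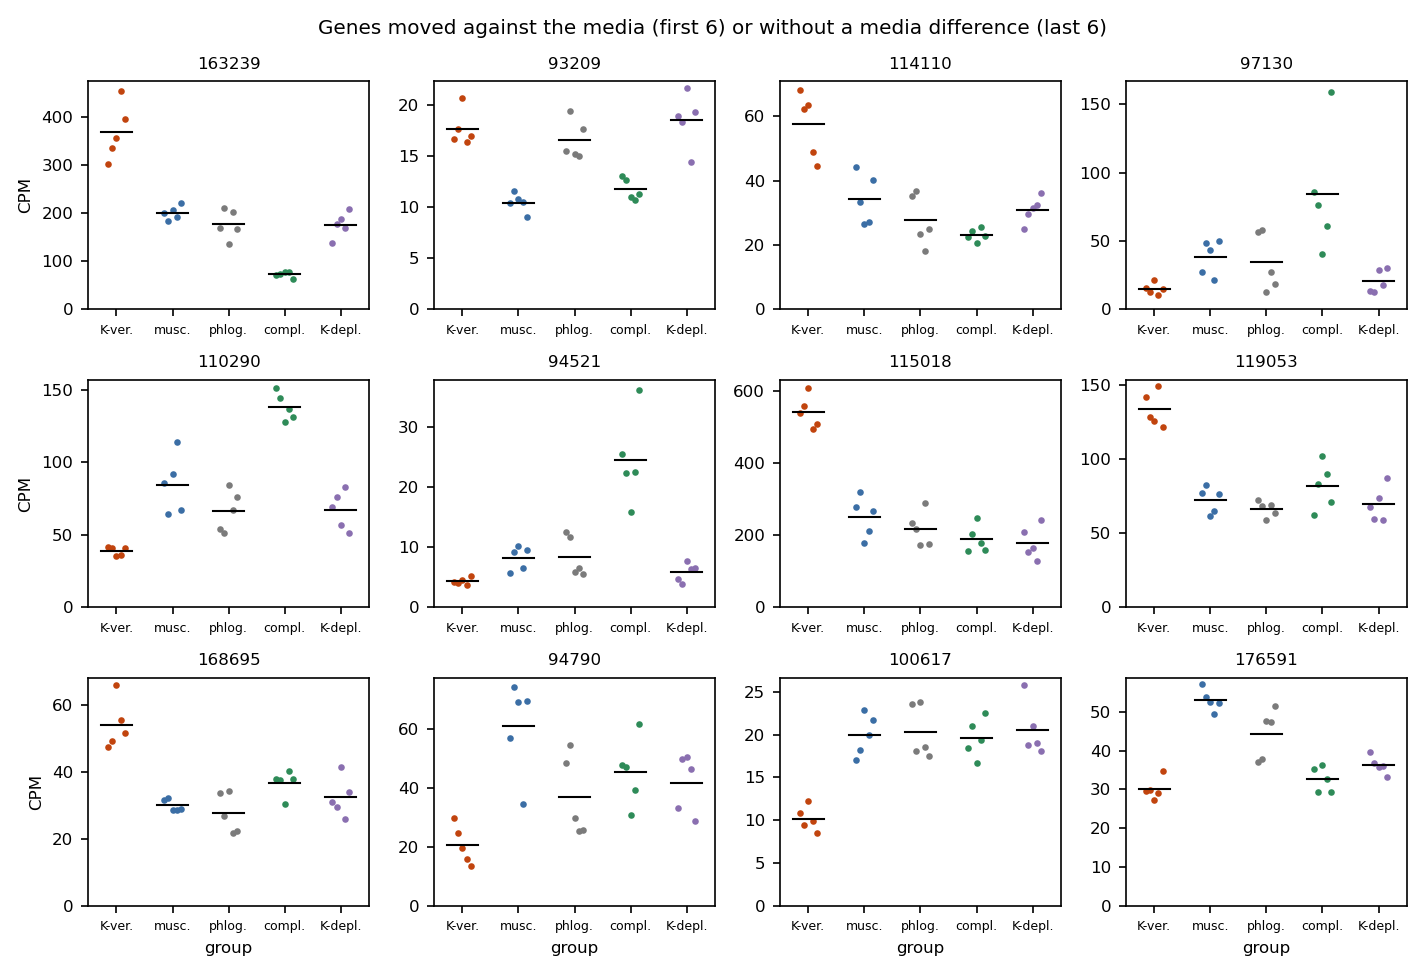
CPM of 12 genes in every library of the 5 groups, from K-vermiculite at the left to K-depleted medium at the right; points are libraries, lines are group means, and panels are titled with the gene ID after PAXINDRAFT_. The first 6 genes were called in opposite directions between the minerals and between the media, as in PAXINDRAFT_163239, and the last 6 differed between the minerals with no call between the media, as in PAXINDRAFT_115018, where all 5 K-vermiculite libraries stand above every other library.

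Position in the genome was compared through the order of genes in a reference table of the same strain. Among 1759 pairs of neighbouring genes that were both called, 59.2% moved in the same direction, against 50.0% of all pairs of called genes, wherever they lie. In 9 pairs of neighbours both genes changed at least 2-fold, each time in the same direction. Of all 252 called genes with such changes, 91 were higher and 161 lower, an unequal split that favours pairs of 1 direction. The share of same-direction pairs among those genes, wherever they lie, was not computed. Of the 9 neighbouring pairs, 2 joined into a run of 3 neighbours, PAXINDRAFT_162912, PAXINDRAFT_76416 and PAXINDRAFT_76742, of which the last 2 are among the 10 widest rises. PAXINDRAFT_162912 was named after its values were seen. PAXINDRAFT_76416 had 27.9, 47.6, 34.9, 67.2 and 34.2 CPM in the K-vermiculite cultures, against 7.28, 8.82, 12.3, 8.87 and 8.38 CPM in the muscovite cultures (edgeR log2 fold change 2.21 with SE 0.23, adjusted p 2.45e-07). PAXINDRAFT_76742 had 66.7, 79.4, 75.1, 131 and 69.9 CPM in the K-vermiculite cultures, against 22.4, 14.6, 24.8, 17.3 and 18.5 CPM in the muscovite cultures (edgeR log2 fold change 2.11 with SE 0.20, adjusted p 8.32e-08). PAXINDRAFT_162912 had 60.1, 72.5, 63.8, 117 and 76.2 CPM in the K-vermiculite cultures, against 30.0, 30.4, 37.8, 31.6 and 33.7 CPM in the muscovite cultures (edgeR log2 fold change 1.25 with SE 0.13, adjusted p 1.52e-07). K-vermiculite replicate 4 was the highest of its group in all 3 genes, as was muscovite replicate 3 of its own. On complete medium the 3 genes averaged 202 ± 41.6, 156 ± 26.9 and 101 ± 9.42 CPM, PAXINDRAFT_76416 first, then PAXINDRAFT_76742 and PAXINDRAFT_162912, against 13.0 ± 2.54, 36.2 ± 6.78 and 33.1 ± 2.61 CPM on K-depleted medium. Muscovite held PAXINDRAFT_76742 at 19.5 ± 4.09 CPM, under its level on K-depleted medium.

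A second neighbourhood held the widest rises in CPM among called genes, and their calls were lost without some single cultures. PAXINDRAFT_87133, PAXINDRAFT_87129 and PAXINDRAFT_87122 follow each other in the reference with PAXINDRAFT_177523 before them, and PAXINDRAFT_87129 was added after its values were seen. The reference gives them short spans, of 531 bases for PAXINDRAFT_87122, 312 for PAXINDRAFT_87133 and 214 for PAXINDRAFT_87129. Contig breaks were inferred from positions, so the order may be wrong, and whether these loci are separate protein-coding genes was not tested. PAXINDRAFT_87122 had 15472, 9112, 7473, 6352 and 7691 CPM in the K-vermiculite cultures, against 5636, 5739.6, 3795, 3349 and 4397 CPM in the muscovite cultures (edgeR log2 fold change 1.01 with SE 0.37, adjusted p 0.0373). PAXINDRAFT_87133 had 9878, 6103, 5092, 4183 and 5016 CPM in the K-vermiculite cultures, against 3460.1, 3568, 2319, 2184 and 2847 CPM in the muscovite cultures (edgeR log2 fold change 1.07 with SE 0.38, adjusted p 0.0313). PAXINDRAFT_87129 had 8648, 5366, 4261, 3712 and 4512 CPM in the K-vermiculite cultures, against 3305, 3419, 2298, 1927 and 2580.2 CPM in the muscovite cultures (edgeR log2 fold change 0.97 with SE 0.37, adjusted p 0.0420). K-vermiculite replicate 1 was the highest of the 10 mineral libraries in all 3 genes, and the lowest K-vermiculite culture stood only a little above the highest muscovite culture. Over all 25 libraries the level of PAXINDRAFT_87122 divided by that of PAXINDRAFT_87133 kept between 1.45 and 1.71, so their levels moved together. Without K-vermiculite replicate 1 the adjusted p in edgeR was 0.129 for PAXINDRAFT_87122, 0.103 for PAXINDRAFT_87133 and 0.137 for PAXINDRAFT_87129. PAXINDRAFT_87122 and PAXINDRAFT_87129 were also lost without K-vermiculite replicate 2 (edgeR adjusted p 0.0561 and 0.0641) and with limma-voom (0.0531 and 0.0568), and PAXINDRAFT_87129 without K-vermiculite replicate 5 (0.0506). Leaving out muscovite replicate 3, 4 or 5 gave edgeR adjusted p of 0.0771, 0.0840 and 0.0668 for PAXINDRAFT_87122, 0.0675, 0.0703 and 0.0555 for PAXINDRAFT_87133, and 0.0830, 0.0945 and 0.0742 for PAXINDRAFT_87129. PAXINDRAFT_177523 had 32109.8, 22451, 11924, 10254 and 11302 CPM in the K-vermiculite cultures, against 17542, 14070.1, 7475, 12199.8 and 9136 CPM in the muscovite cultures and was not called (edgeR adjusted p 0.251). Replicates 1 and 2 were the highest of both groups for PAXINDRAFT_177523, and the groups overlapped. Its mean was 17608 CPM with K-vermiculite and 12084 CPM with muscovite. This gap in CPM was wider than in the 3 called neighbours, but the log2 fold change of PAXINDRAFT_177523 was smaller, at 0.54 with SE 0.36. How reads were divided among such neighbours is not given in the sources used here.

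**Figure D5:**
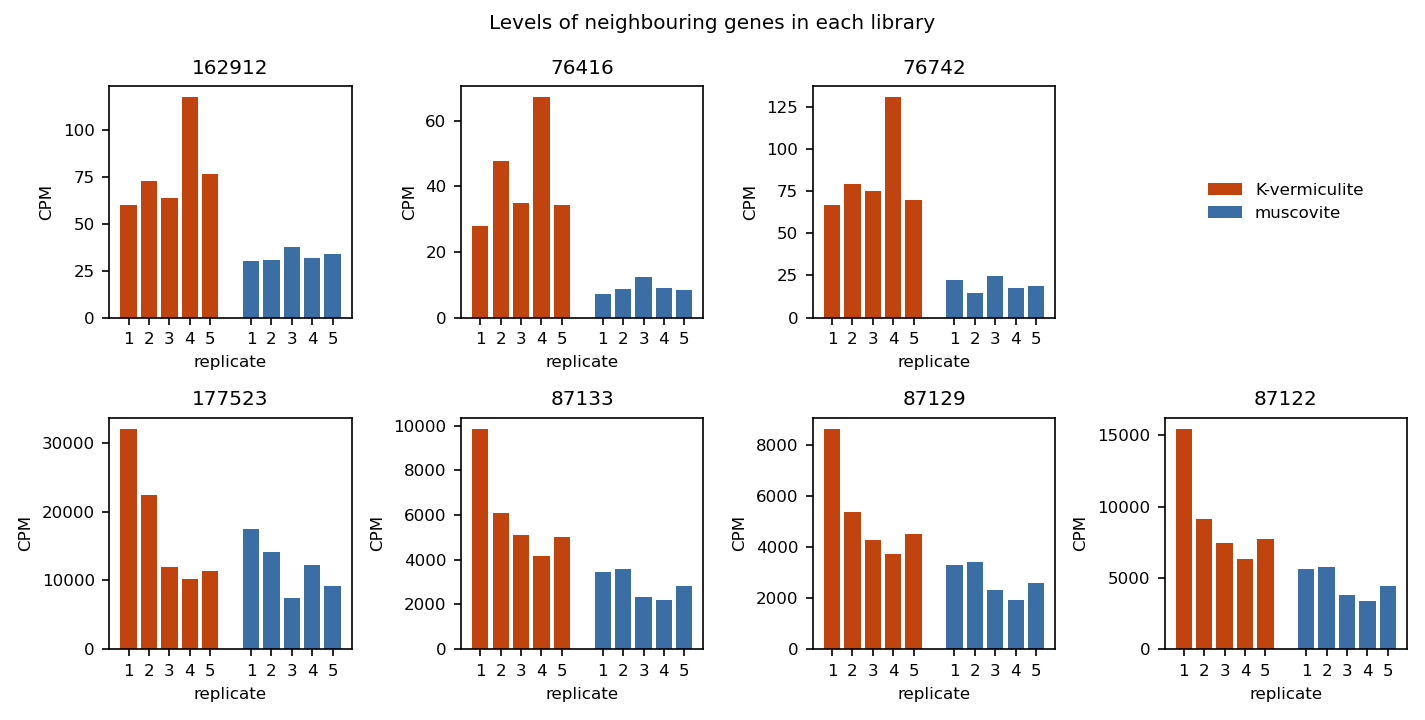
CPM in each library, K-vermiculite left of muscovite, for the run of 3 neighbours (upper row) and for PAXINDRAFT_177523 and the 3 genes after it (lower row); bars are single libraries and start at 0. In the upper row every K-vermiculite bar exceeds every muscovite bar, and in the lower row K-vermiculite replicate 1 is the highest bar of each gene, at 15472 CPM for PAXINDRAFT_87122.

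The deposited table names 2 genes by symbol, of the kind given to synthases of secondary metabolites: nps2, as nonribosomal peptide synthetases are named, and pks3, as polyketide synthases are named. The gene nps2 had 80.0, 89.1, 88.4, 98.7 and 98.3 CPM in the K-vermiculite cultures, against 118, 120.4, 121, 137 and 118 CPM in the muscovite cultures (edgeR log2 fold change -0.43 with SE 0.07, adjusted p 3.49e-05). All K-vermiculite values lay under all muscovite values, and the media moved it the same way, by -0.87 on the log2 scale. The gene pks3 had 48.4, 48.7, 42.2, 45.9 and 54.1 CPM in the K-vermiculite cultures, against 49.9, 54.5, 40.3, 12.5 and 54.5 CPM in the muscovite cultures and was not called (edgeR log2 fold change 0.18 with SE 0.46, adjusted p 0.795). Of the 10 libraries muscovite replicate 4 was the lowest for pks3, and the other 4 muscovite values overlapped the K-vermiculite values. Replicate 4 was also the lowest with phlogopite, at 14.8 CPM, and on K-depleted medium, at 15.1 CPM. On complete medium replicates 1, 2 and 5 were low, at 20.2, 17.9 and 13.3 CPM, against 76.1 and 55.6 CPM in replicates 3 and 4. Without muscovite replicate 4 the log2 fold change of pks3 was -0.06 (edgeR adjusted p 0.938).

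By the positions in the reference, which gives no contig names, PAXINDRAFT_175161, PAXINDRAFT_103396, PAXINDRAFT_93209, PAXINDRAFT_94521 and PAXINDRAFT_176591 may overlap a neighbouring gene, and their counts are uncertain to the extent that reads were shared. Flakes of the 2 minerals differ in their other elements and surface as well as in potassium, and the comparison cannot tell these apart.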

How the data were processed

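The authors deposited a table of raw read counts per gene, whole numbers with 1 column per culture. Libraries were made with the TruSeq Stranded mRNA kit, per the labels' protocols. Per the submitters' processing notes, bcl2fastq 2.19, STAR 2.5.2b and HTSeq were used, without a stated role. The genome build, the annotation, strand use in counting and the handling of reads matching several genes: not given in the sources used here.

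All 25 columns were used. The tests used edgeR 4.0.16 under R 4.3.3. Genes were kept by filterByExpr (minimum count 10, minimum total 15), which left 12744 genes with 99.995% of all counts, and library sizes were scaled by TMM. One negative binomial model with a coefficient per group was fitted to the 25 libraries (glmQLFit, robust), and K-vermiculite minus muscovite, complete minus K-depleted medium and the difference of these differences were each tested by its quasi-likelihood method. Adjusted p values are Benjamini-Hochberg over all tested genes, with a threshold of 0.05. A standard error is the absolute log2 fold change over the square root of F. The model was tested on simulated counts before use. Totals of 26.1 to 41.2 M counts per library in the 2 mineral groups give a median standard error of 0.09 on the log2 scale.

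Replicates are separate cultures per the labels. The chi-square per degree of freedom between replicates ran from 10.6 to 91.9, so none was counted as a duplicate. The p-values weigh each difference against the spread between cultures.

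Named genes were the 10 highest and 10 lowest log2 fold changes among called genes averaging 5 CPM or more over the 10 libraries without overlap; the 5 most abundant genes; the 3 widest rises and 3 widest falls in CPM among called genes; the 2 genes with symbols; and the 3 highest and 3 lowest among genes opposed to the media and among genes without a media difference. The members and lists were chosen with earlier results of these data known. Families defined by protein patterns were planned but not run, as no protein sequences were used here. Neighbours were taken from a reference of 18033 genes that holds all 18032 IDs, as genes in sequence at most 5000 bases apart. Alternatives covered scaling, the filter, DESeq2 1.42.0, limma-voom 3.58.1, the groups alone, a replicate block and each mineral replicate left out.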

Additional observations from a re-analysis of the deposited data

Results flagged for a closer look

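The named genes with each mineral gave 86 groups of 5 values. In 9 of these groups, the gap of 1 value to the nearest other exceeded 0.71 of the group's range. About 1 in 20 groups would do so for independent, normally distributed values. The groups here are CPM of chosen genes in the same 10 libraries, so no excess over that rate can be read from them. Muscovite replicate 3 accounted for 5 of the 9. PAXINDRAFT_68958 was at 17286 CPM in that library, against 28473 to 29867 CPM in the other muscovite cultures, and PAXINDRAFT_169161 was at 6927 CPM, against 11351 to 13000.2 CPM. In the same library PAXINDRAFT_175161 was at 104.04 CPM, against 53.2 to 66.0 CPM, PAXINDRAFT_56670 at 160.1 CPM, against 111 to 122 CPM, and PAXINDRAFT_19704 at 19.2 CPM, against 11.1 to 12.4 CPM. Muscovite replicate 4 held PAXINDRAFT_168631 at 90.2 CPM, against 52.8 to 62.5 CPM, and nps2 at 137 CPM, against 118 to 121 CPM. PAXINDRAFT_172063 was at 7.09 CPM in muscovite replicate 5, against 9.35 to 10.0 CPM. Of the K-vermiculite libraries, replicate 4 held PAXINDRAFT_76742 at 131 CPM, against 66.7 to 79.4 CPM. None of the calls for PAXINDRAFT_169161, PAXINDRAFT_175161, PAXINDRAFT_56670, PAXINDRAFT_19704, PAXINDRAFT_168631, nps2, PAXINDRAFT_172063 or PAXINDRAFT_76742 was lost when that library was left out.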

How the results depend on the processing

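The count of genes called between the minerals kept within 1.5 times of 4984 under all 20 alternatives, from 4191 without muscovite replicates 3 and 4 (chosen after seeing the data) to 5163 with the 2 groups fitted alone, and from 4403 to 4762 with 1 culture left out. The count for the difference of differences ran from 4331 (mean of at least 5 CPM) to 5018 (DESeq2), and from 4441 to 4897 with 1 culture left out. The share of called genes with the same sign between the media was 89.1% with the groups fitted alone, 91.1% without muscovite replicates 3 and 4, and 89.4 to 91.0% with 1 culture left out. Genes of at least 2-fold numbered 160 in place of 252 where a mean of 5 CPM was required, a setting that tests fewer genes. A replicate block gave 5123 calls between the minerals and 5003 for the difference of differences. Deviations of same-numbered libraries from their group means correlated from -0.05 to 0.12, and not every library correlated best with its own number. The numbers were therefore not taken to pair the cultures. That check took all genes of the 2 mineral groups together, so it does not speak for single genes. PAXINDRAFT_177523 was highest in replicate 1 with K-vermiculite (32110 CPM) and muscovite (17542 CPM). The same held on complete medium (38657 CPM) and K-depleted medium (20815 CPM), but with phlogopite replicate 3 was highest (10809 CPM). The top 10 share differed by 0.83 to 1.78 percentage points with 1 culture left out and by 1.04 points for the 50 most abundant genes. Of 45 named genes, 42 kept their call or lack of one in every alternative that gave a value; PAXINDRAFT_87122, PAXINDRAFT_87129 and PAXINDRAFT_87133 did not: without muscovite replicates 3 and 4 their edgeR adjusted p were 0.182, 0.195 and 0.160, and the cause was not tested. Families by protein pattern were not run. The same-sign share of neighbours was 58.8 to 59.7% with gaps of 1000 or 10000 bases or library totals. Depth limited the low genes: the median standard error was 0.17 on the log2 scale in the 3186 least abundant tested genes and 0.07 in the 3186 most abundant.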

Other observations

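Calls between the minerals were spread over all levels. The tested genes were divided by mean CPM over the 10 libraries into 4 classes of 3186. In the lowest class (up to 6.60 CPM) 26.3% were called, and in the higher classes 39.9%, 43.7% and 46.5%. The lowest class nevertheless held 99 of the 252 genes with at least 2-fold changes. The 91 genes at least 2-fold higher with K-vermiculite had a median level of 3.95 CPM and a median gene span of 889 bases in the reference, and the 161 lower genes had 22.3 CPM and 1145 bases, against 27.3 CPM and 1413 bases over all tested genes. Shorter genes collect fewer reads at a given number of transcripts, so span and level are tied in these counts.

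Among the 9 neighbouring pairs with at least 2-fold changes in both genes were PAXINDRAFT_12839 and PAXINDRAFT_12840, with log2 fold changes of -2.36 and -2.12, PAXINDRAFT_102217 and PAXINDRAFT_102218, with -2.33 and -2.80, and PAXINDRAFT_164693 and PAXINDRAFT_103422, with -1.33 and -1.34. PAXINDRAFT_12840, PAXINDRAFT_102217 and PAXINDRAFT_102218 averaged at most 1.06 CPM over the 10 libraries, and these pairs were picked from the list after its values were seen.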
